A study of Mus musculus with 20 samples.

Results

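The interstitial matrix genes described here were 39 mouse genes for collagens that build fibrils, beaded filaments and networks, for fibronectin and versican, and for elastin, microfibril proteins and fibulins. They were chosen by name from what their proteins are known to do, and each was found by its symbol among the 27179 genes of the table. Of the 39, 36 had a mean of at least 10 normalized counts over the 20 libraries and were tested among 13057 such genes. RNA-seq had been run on adipocyte progenitor cells (APCs), PDGFRb+ cells that were isolated by flow cytometry from inguinal white adipose tissue, the subcutaneous fat of the groin, of male C57BL/6 mice. The cells were divided by DPP4, a cell surface peptidase, and the mice had been at room temperature (22 °C) or in the cold (6 °C) for 24 h. The 4 groups of 5 libraries were therefore DPP4+ cells of mice at 6 °C, DPP4+ cells of mice at 22 °C, DPP4- cells of mice at 6 °C and DPP4- cells of mice at 22 °C, all of 1 strain and sex, with no age given in the labels. The labels do not say whether each library came from its own mouse or from pooled mice, so p-values measure the spread between these libraries.

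Interstitial collagens are made as procollagens, trimmed outside the cell and laid down as cross-linked fibrils, with types I and III forming the bulk and type V starting and sizing the fibril. Collagens with interrupted triple helices sit on fibril surfaces, type VI forms beaded filaments around cells, and fibronectin is the scaffold on which new collagen is deposited. Elastic fibres are built from elastin on microfibrils of fibrillin, with fibulins and lysyl oxidases joining them. In white fat this network surrounds adipocytes and limits their growth, and fibroblast-like progenitors are a main source of it.

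Libraries held 8.49 to 18.8 M reads in genes (M stands for 1e+06). The totals of the normalized counts differed between the populations, at 10.2 to 12.1 M in DPP4+ libraries and 15.4 to 17.3 M in DPP4- libraries. Dpp4 itself ranged from 7170.5 to 13270.1 normalized counts in DPP4+ libraries and from 37.8 to 137 in DPP4- libraries. All 12 markers of DPP4+ interstitial progenitors were higher in DPP4+ than in DPP4- cells at both temperatures, and of 11 markers of committed preadipocytes 10 were lower and 1 was higher.

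The 39 matrix genes took a large share of all normalized counts, and that share was smaller in the cold in DPP4- cells. They held 12.3 ± 1.31% of a library (SD, n = 5) in DPP4- cells at 6 °C and 15.7 ± 0.900% in DPP4- cells at 22 °C. The lowest and highest libraries were 10.1 and 13.5% at 6 °C, against 14.3 and 16.6% at 22 °C, so the groups did not overlap. In DPP4+ cells the share was 8.89 ± 0.671% at 6 °C and 10.7 ± 1.31% at 22 °C. There the ranges overlapped, with 7.80 to 9.42% at 6 °C and 8.87 to 12.5% at 22 °C. In bulk samples, fewer cells of a type and less RNA per cell cannot be told apart.

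Most of this share came from the chains of types I and III. Col1a1, Col1a2 and Col3a1 together held 4.71 ± 0.548% in DPP4+ cells at 6 °C and 5.74 ± 1.09% at 22 °C. In DPP4- cells they held 8.90 ± 1.16% at 6 °C and 11.5 ± 0.840% at 22 °C. Fibronectin (Fn1) had the opposite distribution, with 1.54 ± 0.104% and 2.01 ± 0.128% in DPP4+ cells at 6 and 22 °C and 0.176 ± 0.0219% and 0.290 ± 0.0232% in DPP4- cells. Without these 4 genes the other 35 held 2.64 ± 0.0718% at 6 °C and 2.94 ± 0.145% at 22 °C in DPP4+ cells, against 3.20 ± 0.306% and 3.84 ± 0.1005% in DPP4- cells. Elastin, the microfibril proteins and the fibulins together held 1.119 ± 0.0566% and 1.26 ± 0.0521% in DPP4+ cells at 6 and 22 °C, against 0.493 ± 0.0465% and 0.577 ± 0.0486% in DPP4- cells. In mean level Col3a1 ranked 1 among all genes in DPP4+ cells and 2 in DPP4- cells, and Col1a1 ranked 2 or 3 in every group. Fn1 ranked 3 and 2 in DPP4+ cells at 6 and 22 °C, against 57 and 29 in DPP4- cells. The mean sum of the 39 genes was higher in DPP4- cells, and that gap was 21.1% of the difference in column totals at 6 °C and 25.1% at 22 °C.

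**Figure D1:**
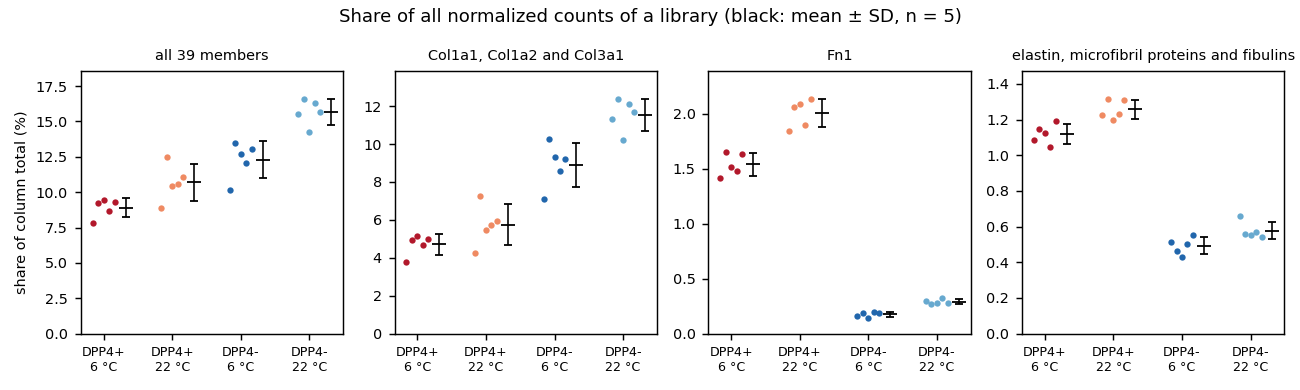
Share of all normalized counts of a library (%, y axis) held by the 39 matrix genes, by Col1a1, Col1a2 and Col3a1, by Fn1, and by elastin with the microfibril proteins and fibulins, in the 4 groups (x axis). Points are libraries and black bars are means ± SD (n = 5). The DPP4- libraries at 6 °C lie between 10.1 and 13.5% for all 39 genes, below those at 22 °C, and Fn1 stands at 1.42 to 2.14% in DPP4+ libraries.

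The first comparison asked how matrix genes of DPP4+ cells stood after 24 h in the cold. Of the 36 tested, 3 rose (Vcan, Col7a1 and Eln) and 12 fell (adjusted p under 0.05, limma on the log2(value + 1) scale, adjusted over all 13057 genes). Among all genes tested 46.1% were called here, 23.5% higher and 22.6% lower. The matrix genes were 8.33% and 33.3%, and their median log2 difference was -0.26 against 0.01 over all genes. Of 9 chains of fibrillar collagen 3 fell (Col5a2, Col5a3 and Col24a1). The falls were several-fold for Col24a1, Fbn2, Col8a2 and Col8a1. Group ranges did not overlap for 11 of the 36, of which 2 were higher and 9 lower, against 38.4% of all genes, 19.4% higher and 19.0% lower.

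Versican (Vcan, chr13:89655309-89743027 in the RefSeq annotation of GRCm38) is a large proteoglycan that binds hyaluronan in loose, provisional matrix. In DPP4+ cells Vcan had 32524, 27457, 27827, 26951 and 19389.5 normalized counts at 6 °C, against 7380, 7807, 8343, 7152 and 8599 at 22 °C. In DPP4- cells it had 5604, 5329.6, 4660.5, 7433 and 6750.4 at 6 °C, against 7958, 9155, 8143, 9604 and 8436 at 22 °C. Every cold DPP4+ library lay above every other library, and in DPP4- cells every cold library lay below those at 22 °C. The means differed 3.42-fold in DPP4+ cells (log2 difference 1.76 ± 0.12, SE, adjusted p = 2.94e-11, limma). Values after ± are SE for log2 differences and SD for group means throughout. In DPP4+ cells its share of a library was 0.237 ± 0.0501% at 6 °C and 0.0711 ± 0.00384% at 22 °C.

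Col7a1 (chr9:108953586-108984875) encodes the chain of type VII collagen, which forms anchoring fibrils under epithelia. In DPP4+ cells it had 100, 90.7, 73.8, 90.4 and 62.1 normalized counts at 6 °C, against 47.9, 49.8, 55.0, 50.7 and 42.9 at 22 °C. In DPP4- cells Col7a1 stood at 62.1 to 76.4 at 6 °C and 54.2 to 79.6 at 22 °C. The rise in DPP4+ cells was 1.69-fold (log2 difference 0.73 ± 0.13, adjusted p = 8.24e-05), with no overlap between those groups. Elastin (Eln, chr5:134702595-134747368), the core protein of elastic fibres, had 3531, 4749, 4908, 4415 and 4892 normalized counts at 6 °C in DPP4+ cells, against 2206, 3591, 2981, 3535 and 4472 at 22 °C. Its ranges overlapped. The difference in Eln, 1.34-fold (log2 difference 0.45 ± 0.16, adjusted p = 0.023), lost its call without any 1 of 4 libraries, DPP4+ cold libraries 3 and 5 and DPP4+ 22 °C libraries 1 and 3 (adjusted p 0.0517 to 0.0752), and with no filter on low values (adjusted p = 0.0544).

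Several members fell several-fold in DPP4+ cells. Col24a1, a minor fibrillar collagen known from developing bone, had 144, 107, 103, 112 and 66.6 normalized counts at 6 °C, against 524, 458, 396, 415 and 372 at 22 °C. Col8a1, a chain of the short network-forming type VIII collagen of vessel walls, had 267, 246, 254, 260.1 and 191 at 6 °C, against 889.9, 784, 707, 814 and 726 at 22 °C. Each of these cold groups lay wholly below its counterpart at 22 °C. Col8a2, the partner chain of Col8a1, had 21.6, 20.4, 16.5, 17.1 and 14.2 at 6 °C, against 81.5, 66.8, 62.2, 58.9 and 58.9 at 22 °C. Fbn2, the fibrillin that is prominent in developing tissue, had 229, 181, 224, 172 and 128 at 6 °C, against 827, 825, 659, 749 and 742 at 22 °C. For all 4 genes the groups did not overlap, and the means at 6 °C were 4.07-fold, 3.22-fold, 3.66-fold and 4.07-fold lower for Col24a1, Col8a1, Col8a2 and Fbn2. The log2 differences were -2.05 ± 0.48 for Col24a1 (adjusted p = 0.00171), -1.69 ± 0.23 for Col8a1 (adjusted p = 2.94e-06), -1.82 ± 0.22 for Col8a2 (adjusted p = 3.12e-07) and -2.04 ± 0.30 for Fbn2 (adjusted p = 1.92e-05).

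The promoters of 5 of the 6 genes with the largest called log2 differences in the cold in DPP4+ cells are shown, those of Vcan and Col7a1, which rose, and of Col8a1, Col8a2 and Col24a1, which fell (Fbn2 is the other). Each sequence is the 250 bases before the start used in the RefSeq promoter table on GRCm38.p6, written 5′ to 3′ on the gene's strand. For Vcan that start lies 515 bases inside the gene span given above, so the window is within the span, and the other 4 windows end at the edge of theirs. Vcan is chr13:89742513-89742762 on the minus strand, Col7a1 chr9:108953336-108953585 on the plus strand, Col8a1 chr16:57754738-57754987 on the minus strand, Col8a2 chr4:126286544-126286793 on the plus strand and Col24a1 chr3:145292222-145292471 on the plus strand. Capitals mark the CCAAT box (CCAAT or ATTGG), the half-site of the cAMP response element (TGACG or CGTCA) and the GC box (GGGCGG or CCGCCC).
Vcan: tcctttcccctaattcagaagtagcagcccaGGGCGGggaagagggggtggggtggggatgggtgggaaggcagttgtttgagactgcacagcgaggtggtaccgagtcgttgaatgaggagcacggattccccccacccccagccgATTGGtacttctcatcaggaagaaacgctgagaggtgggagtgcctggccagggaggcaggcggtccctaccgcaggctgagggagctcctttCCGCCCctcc
Col7a1: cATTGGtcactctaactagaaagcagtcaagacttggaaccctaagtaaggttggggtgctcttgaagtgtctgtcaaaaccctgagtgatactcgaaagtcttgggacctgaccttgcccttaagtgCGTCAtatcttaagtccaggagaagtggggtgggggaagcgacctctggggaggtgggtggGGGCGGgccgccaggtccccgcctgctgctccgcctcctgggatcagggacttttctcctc
Col8a1: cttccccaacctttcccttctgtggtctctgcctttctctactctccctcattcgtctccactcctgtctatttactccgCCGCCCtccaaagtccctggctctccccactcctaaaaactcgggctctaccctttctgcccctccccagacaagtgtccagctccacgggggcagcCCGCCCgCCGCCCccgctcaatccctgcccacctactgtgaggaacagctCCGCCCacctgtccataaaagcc
Col8a2: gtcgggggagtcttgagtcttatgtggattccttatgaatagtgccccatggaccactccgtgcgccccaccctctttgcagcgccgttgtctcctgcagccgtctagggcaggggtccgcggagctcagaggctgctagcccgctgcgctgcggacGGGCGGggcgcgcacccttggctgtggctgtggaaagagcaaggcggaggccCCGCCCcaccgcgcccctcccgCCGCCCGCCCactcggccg
Col24a1: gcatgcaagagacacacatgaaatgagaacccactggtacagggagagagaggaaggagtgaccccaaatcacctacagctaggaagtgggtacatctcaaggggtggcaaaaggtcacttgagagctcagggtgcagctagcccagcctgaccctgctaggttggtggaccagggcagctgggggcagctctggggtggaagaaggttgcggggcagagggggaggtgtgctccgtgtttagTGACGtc
A CCAAT box stood in the windows of Vcan and Col7a1, the half-site in those of Col7a1 and Col24a1, and a GC box in all but that of Col24a1.

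Such windows were found for 29 of the 39 genes, and for 22 of them a start used lay inside the gene span. Among these 22, Col6a2, Efemp2, Fbln1, Fbln5 and Mfap2 have several starts, and each also has a start at the edge of the span. On either strand the GC box was in 22 of the 29, against 35.4% of 27025 gene promoters of the same length and 64.5% of those of 10133 tested genes. The CCAAT box was in 9, against 37.5% and 40.5%, and the half-site TGACG in 3 (Col24a1, Col7a1 and Fbln5), against 19.8% and 30.5%. The full site TGACGTCA, which holds the half-site on both strands, was in 0 of 29, against 1.77% and 3.07%. TATAAA was in 2 (Col13a1 and Col3a1), against 14.3% and 7.87%, GGAATG, read by TEAD factors, in 3, against 14.4% and 12.9%, and TGANTCA, read by AP-1, in 2, against 7.82% and 5.60%. A match says only that these letters occur in the window.

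Smaller falls in DPP4+ cells covered chains of the fibril, of beaded filaments and of fibril surfaces. Col12a1, a collagen on fibril surfaces, had 17364, 14579, 14349, 14158 and 9708 normalized counts at 6 °C, against 23064, 21346, 18296, 19714 and 19988 at 22 °C. Emilin1, a glycoprotein at the border of elastin and microfibrils, had 1114, 987, 999, 1016 and 868 at 6 °C, against 1461, 1411, 1297, 1367 and 1214 at 22 °C. Neither gene's groups overlapped, with log2 differences of -0.57 ± 0.13 (adjusted p = 0.00143) and -0.44 ± 0.09 (adjusted p = 0.000472). Of the type V chains, Col5a2 (26118 ± 965 at 6 °C and 31644 ± 1937 at 22 °C, n = 5 each) and Col5a3 (4292 ± 1088 and 5980.2 ± 1205) fell, with log2 differences of -0.28 and -0.49 (adjusted p = 0.00328 and 0.0142). Of the type VI chains, Col6a1 and Col6a2 fell by 0.27 and 0.34 on the log2 scale (adjusted p = 0.0167 and 0.00718), the first of these without a call when DPP4+ cold library 1 was left out (adjusted p = 0.0574). Col16a1, another fibril surface collagen, had a log2 difference of -0.28 ± 0.09 (adjusted p = 0.0137), and Fn1 of -0.34 ± 0.10 (adjusted p = 0.011). Col28a1, a beaded collagen found around nerves, stood at 1312 ± 266 at 6 °C and 1989 ± 223 at 22 °C without overlap, and missed the threshold in limma (log2 difference -0.62 ± 0.26, adjusted p = 0.0614) but not in edgeR (adjusted p = 0.00481).

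The most abundant chains did not pass in DPP4+ cells. Col1a1 had 143154, 190559, 199070, 179138 and 197652 normalized counts at 6 °C, against 145655, 252080, 194577, 202057 and 220375 at 22 °C, and Col1a2 stood at 149254 ± 21477 and 166289 ± 28246. The 22 °C libraries reached from below the cold mean to above every cold library. Their log2 differences were -0.15 ± 0.14 (adjusted p = 0.421) and -0.15 ± 0.13 (adjusted p = 0.368). Col3a1, at 207838 ± 34802 and 267930 ± 67797, had -0.34 ± 0.16 (adjusted p = 0.0842) and passed with totals set equal (log2 difference -0.39, adjusted p = 0.0205). DPP4+ 22 °C library 1 was the lowest of its group in Col1a1, Col1a2 and Col3a1, and without it 16 members were called lower, Col3a1, Col5a1, Col6a3 and Col6a6 among them. With totals set equal 16 were called lower as well and the 3 rises kept their calls.

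Markers of other cells were counted in the same contrast, where 23.5% of all genes were called higher and 22.6% lower. Pericyte and smooth muscle markers summed to 4220 to 7096 normalized counts at 6 °C, against 9358 to 12162 at 22 °C, with 5 of 11 tested lower and 2 higher. Most of these sums came from 2 contractile genes, Acta2 (means 3083 at 6 °C and 6046 at 22 °C) and Tagln (2123 and 3700). The pericyte markers went both ways. Kcnj8 averaged 48.0 at 6 °C and 18.5 at 22 °C, Abcc9 342 and 222, and Notch3 138 and 239. Mature adipocyte markers summed to 549 to 1053 at 6 °C, against 1345 to 1829 at 22 °C, with 1 of 7 lower (5 by edgeR and 5 by DESeq2). Of their defining genes Adipoq averaged 230.2 at 6 °C and 332 at 22 °C, and Lep did not pass 0.727 in any DPP4+ library. Adrb3, in the same list, differed far more, with means of 1.06 at 6 °C and 92.3 at 22 °C. Of 11 markers of committed preadipocytes 6 were lower and 2 higher. DPP4+ progenitor markers were higher in 3 of 12 cases, endothelial markers in 2 of 9, immediate early genes in 5 of 24 and myeloid markers in 1 of 4, and Schwann cell markers were lower in 2 of 6. No mesothelial marker of 2 tested was called (0 at an unadjusted p under 0.05, 0 by edgeR and 0 by DESeq2), and no lymphocyte marker reached the level for testing, with sums of 10.3 to 22.4 at 6 °C and 13.8 to 29.7 at 22 °C. The part of these cells in the matrix results was not tested.

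The next comparison was cold against 22 °C in DPP4- cells, where few genes were called. Of the 36 matrix genes 17 fell, which is 47.2%, and among all 13057 genes 5.22% were called, 1.98% higher and 3.23% lower. None rose (0 at an unadjusted p under 0.05, 0 by edgeR and 0 by DESeq2). The falls reached from -0.30 to -1.11 on the log2 scale and took in fibrillar chains (Col1a2, Col3a1, Col5a1 and Col5a2), type VI chains (Col6a1, Col6a2 and Col6a6), Col8a1, Col12a1, Col16a1, Col23a1, Fn1, Vcan, Fbn1, Mfap4, Mfap5 and Fbln1. The median over the 36 was -0.38 and over all genes 0.00. In 15 of the 36 every cold library lay below every library at 22 °C. Over all genes the groups were apart for 4.87%, with the cold libraries lower for 3.22%.

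Fibronectin (Fn1, chr1:71585473-71653280) had the smallest p-value among them. In DPP4- cells Fn1 had 25274, 30510.3, 22870.5, 32002 and 28446 normalized counts at 6 °C, against 51711, 45503, 44790.3, 54926 and 48321 at 22 °C. In DPP4+ cells it had 153060, 189888, 172467, 166107 and 198330 at 6 °C, against 188831, 228710, 238544, 209211 and 245535 at 22 °C. The cold libraries of DPP4- cells were all below those at 22 °C, while in DPP4+ cells the ranges overlapped. The level in DPP4- cells was 1.76-fold lower in the cold (log2 difference -0.82 ± 0.10, adjusted p = 0.000153).

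Among fibrillar chains, Col3a1 (chr1:45311538-45349706), the chain of type III collagen, had 510858, 758771, 673253, 617592 and 680839 normalized counts in DPP4- cells at 6 °C, against 976810, 1042420, 842413, 964539 and 971879 at 22 °C. Col5a2 had 37438, 43505, 39639, 39973 and 41133 at 6 °C, against 58952, 54619, 47221, 52045 and 51732 at 22 °C. Neither overlapped, and the log2 differences were -0.57 ± 0.16 (adjusted p = 0.0367) and -0.39 ± 0.07 (adjusted p = 0.00263). Col1a2 (chr6:4505618-4541543), the second chain of type I collagen, had 249327, 362704, 321341, 304975 and 300864 at 6 °C, against 429267, 441618, 356408, 438151 and 431033 at 22 °C. Cold library 2 overlapped with library 3 at 22 °C in Col1a2, which had -0.45 ± 0.13 (adjusted p = 0.0449). Col1a1 (chr11:94936224-94953042) had 350157, 542267, 468404, 445908 and 439268 at 6 °C, against 546440, 601503, 470150, 634480 and 604261 at 22 °C, and did not pass (log2 difference -0.35 ± 0.14, adjusted p = 0.146). Calls of the abundant chains were not firm. Leaving out any of 8 of the 10 libraries ended those of Col1a2 (adjusted p up to 0.113) and of Col3a1 (up to 0.0927), 5 ended that of Col5a1 (up to 0.0838), and Col5a2 kept its call in each case.

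Of 5 type VI chains 3 fell in the same cells, and of 3 fibril surface collagens 2. Col14a1, the third of these, averaged 5739 ± 790.1 normalized counts at 6 °C and 5765 ± 1179.7 at 22 °C (log2 difference 0.01 ± 0.16, adjusted p = 0.983), and Col6a5 did not pass either (-0.62 ± 0.38, adjusted p = 0.384). Col6a6, a chain that can stand in for Col6a3, had 1362, 1252, 1725, 2496 and 1293 normalized counts at 6 °C, against 2986, 3049, 3036, 3319 and 2690.1 at 22 °C. Col16a1 had 1408, 2285, 1945, 1799 and 1872 at 6 °C, against 2656, 2843, 2401, 2564 and 3000 at 22 °C. Both were lower in every cold library, by -0.94 ± 0.21 and -0.55 ± 0.09 on the log2 scale (adjusted p = 0.0149 and 0.000848). Col6a2 stood at 72446 ± 9394 at 6 °C and 96674 ± 3798 at 22 °C (log2 difference -0.43, adjusted p = 0.0138), Col6a1 at 55987 ± 5681 and 68840.3 ± 1565 (log2 difference -0.30, adjusted p = 0.0477) and Col6a3 at 120206 ± 15986 and 159365 ± 9267. Col6a3 missed the threshold (log2 difference -0.42, adjusted p = 0.0529), and the call of Col6a1 was lost without any of 9 libraries (adjusted p 0.0584 to 0.124). Col8a1 was low in DPP4- cells, with 6.75 to 16.9 at 6 °C and 13.9 to 37.8 at 22 °C (log2 difference -1.11 ± 0.23, adjusted p = 0.00709). Col12a1 (391 to 503 and 469.9 to 791, log2 difference -0.51) lost its call without any of 6 libraries (adjusted p 0.0502 to 0.0704). The membrane-spanning Col23a1 (81.8 to 158 and 147 to 203, log2 difference -0.53) lost its call without DPP4- 22 °C library 4 (adjusted p = 0.0512).

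Of 7 genes of elastin and microfibrils 3 fell in DPP4- cells in the cold, and of 5 fibulins 1. Mfap4, a protein that binds elastin and fibrillin, had 113, 179, 128, 102 and 116 normalized counts at 6 °C, against 192, 299, 209, 210.3 and 333 at 22 °C. Mfap5, a small microfibril glycoprotein, had 2621, 2574, 2000.2, 1865 and 2014 at 6 °C, against 3416, 2999.5, 2776, 2713 and 3006 at 22 °C. Fbn1, the main fibrillin of microfibrils, had 36814, 32269, 28916, 39437 and 40654 at 6 °C, against 59131, 46155, 44157, 50468 and 43634 at 22 °C. None of the 3 overlapped between the temperatures, with log2 differences of -0.95, -0.44 and -0.45 (adjusted p = 0.00318, 0.0157 and 0.0194). The call of Fbn1 was lost without DPP4- cold library 3 or DPP4- 22 °C library 1 (adjusted p 0.0622 and 0.0546). Fbln1, a fibulin of elastic fibres and basement membranes, had 6669.8, 8377, 6758, 6518 and 5190 at 6 °C, against 10711, 7979, 8238, 9146 and 10359 at 22 °C, and cold library 2 overlapped (log2 difference -0.48 ± 0.11, adjusted p = 0.0148). Elastin itself, Fbn2, Mfap2, Emilin1, Fbln2, Fbln5, Efemp1 and Efemp2 did not pass in DPP4- cells, with log2 differences between -0.59 for Fbn2 and 0.20 for Efemp1.

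The count of 17 was 11 without DPP4- cold library 3 and 11 without DPP4- 22 °C library 4, and lay between 12 and 16 without any other library. It was 15 by edgeR, 19 by DESeq2 and 15 with totals set equal, where Col12a1 and Col6a1 did not pass. In edgeR Col1a2 and Col6a1 lost their calls (adjusted p = 0.0510 and 0.0643), with no filter on low values Col1a2 and Col3a1 (0.0515 and 0.0770), and with the 10 DPP4- libraries fitted alone Col8a1 and Col23a1 (0.0689 and 0.0693). Markers of other cells were counted here too, where 1.98% of all genes were called higher and 3.23% lower. Mesothelial markers summed to 56.3 to 95.4 at 6 °C, against 24.3 to 50.7 at 22 °C, with Lrrn4 averaging 36.9 at 6 °C and 8.42 at 22 °C and Msln between 0 and 4.61 in these libraries. Mature adipocyte markers summed to 182 to 499 at 6 °C, against 77.0 to 236 at 22 °C, with 2 of 7 higher (1 by edgeR and 3 by DESeq2). Of 11 markers of committed preadipocytes 2 were higher, and DPP4+ progenitor markers lower in 2 of 12 and higher in 1. Of 24 immediate early genes 0 were called by limma (3 higher at an unadjusted p under 0.05, 0 by edgeR and 1 by DESeq2). Nor were endothelial, pericyte and smooth muscle, myeloid or Schwann cell markers called (0 of 9, 11, 4 and 6 by limma, edgeR and DESeq2, and 0, 3, 2 and 1 at an unadjusted p under 0.05). The sums of lymphocyte markers were 17.3 to 83.2 at 6 °C and 22.5 to 37.8 at 22 °C. The part of these cells in the matrix results was not tested.

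**Figure D2:**
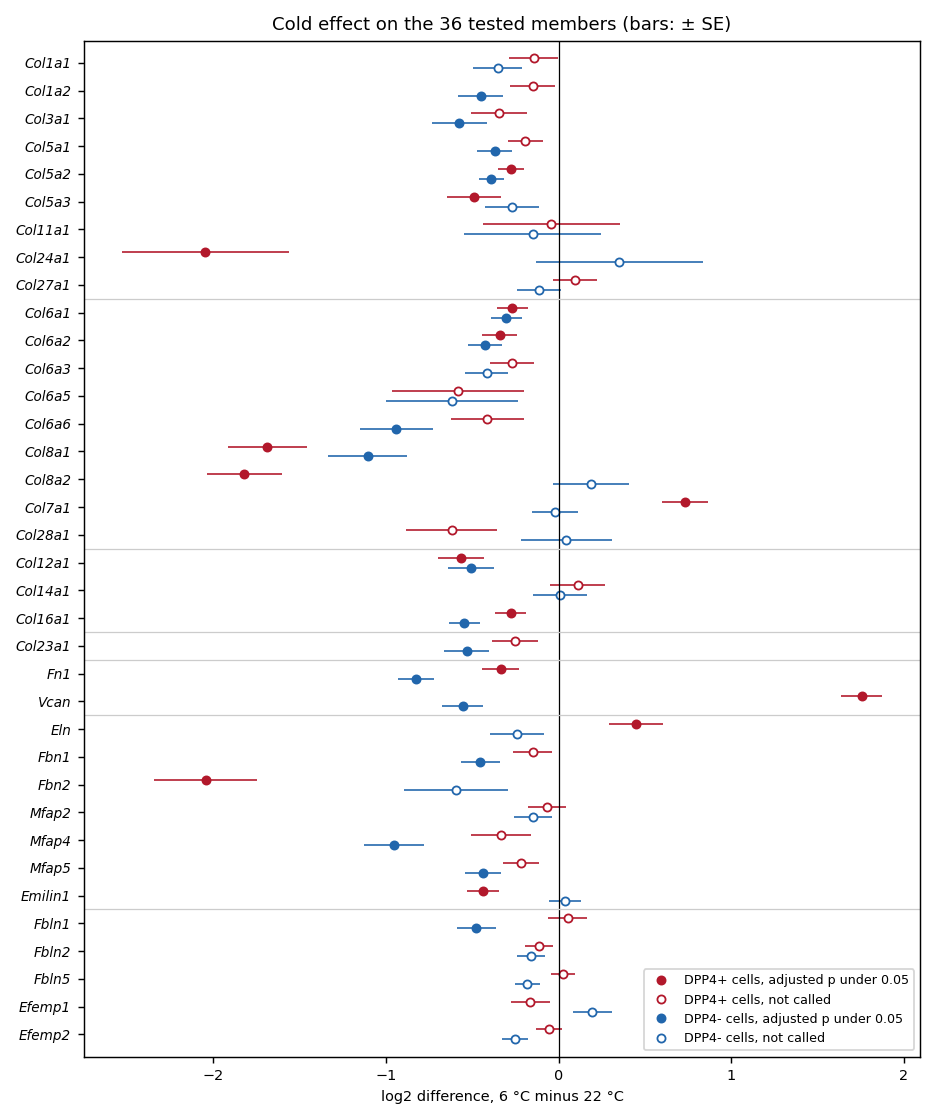
Fitted log2 difference of 6 °C minus 22 °C (x axis) for the 36 tested matrix genes (y axis, grouped by role), in DPP4+ cells (red) and DPP4- cells (blue). Filled points have an adjusted p under 0.05 and bars are ± SE. The red point of Vcan lies at 1.76 and its blue point at -0.56, and all 17 filled blue points are below 0.

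Whether the cold effect differed between the populations was tested directly, as the effect in DPP4+ cells minus that in DPP4- cells. Of the 36 genes 9 differed, and among all genes 33.2% did, 16.8% upward and 16.4% downward. The difference was positive for Vcan (log2 difference 2.31 ± 0.17, adjusted p = 4e-10), Col7a1 (0.75 ± 0.19, adjusted p = 0.00336), Eln (0.69 ± 0.22, adjusted p = 0.0202), Fbln1 (0.53 ± 0.16, adjusted p = 0.0132) and Fn1 (0.49 ± 0.15, adjusted p = 0.0135). Of these, Vcan rose in DPP4+ cells and fell in DPP4- cells, and Fn1 fell in both, more in DPP4- cells. The difference was negative for Col24a1 (-2.40 ± 0.68, adjusted p = 0.0105), Col8a2 (-2.01 ± 0.31, adjusted p = 2.34e-05), Fbn2 (-1.45 ± 0.42, adjusted p = 0.0134) and Emilin1 (-0.48 ± 0.13, adjusted p = 0.00717), which fell in DPP4+ cells and were not called in DPP4- cells. The call of Col24a1 was lost in edgeR (adjusted p = 0.0532), and with totals set equal the 5 and 4 counts were 5 and 5.

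For the type I, III, V and VI chains the difference of the cold effects did not pass. It was 0.21 ± 0.20 for Col1a1, 0.30 ± 0.19 for Col1a2, 0.23 ± 0.23 for Col3a1, -0.22 ± 0.22 for Col5a3 and 0.15 ± 0.18 for Col6a3. Their falls in 1 population and not in the other are therefore not shown to differ. In DPP4- cells Col24a1 had 1.34, 2.73, 6.75, 9.41 and 1.65 normalized counts at 6 °C and 0, 1.501, 5.04, 9.21 and 2.57 at 22 °C, levels of a few reads. Col8a2 had 9.41 to 24.5 and 9.45 to 17.6, and Fbn2 47.7 to 160 and 115 to 338, in the same cells. Emilin1 had 1292, 1418, 1208, 1754 and 1847 at 6 °C, against 1414, 1545, 1451, 1466 and 1346 at 22 °C, with wide overlap.

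**Figure D3:**
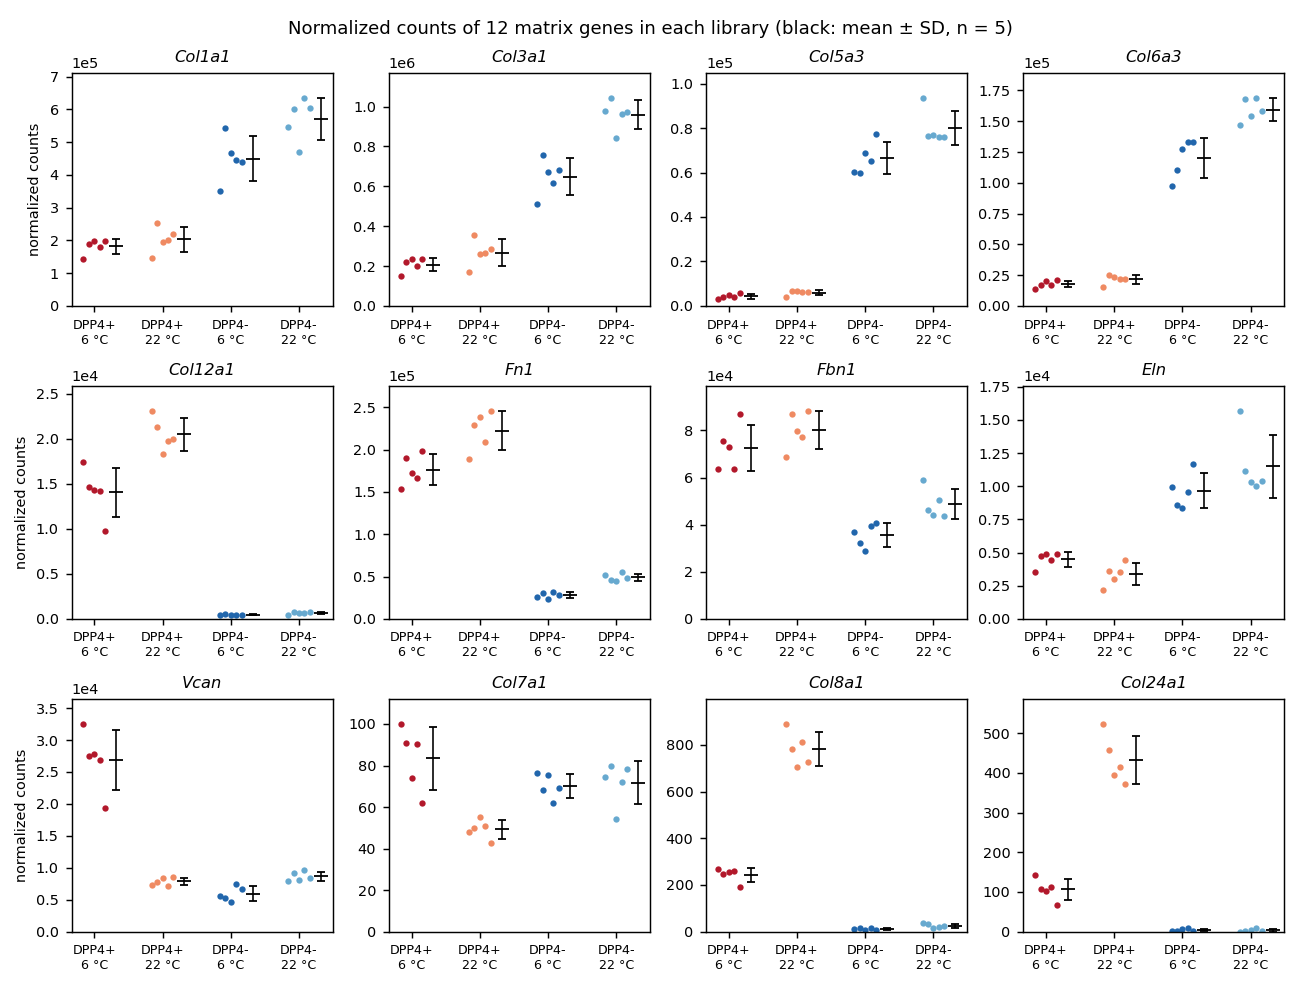
Normalized counts (y axis, linear, each panel on its own scale) of 12 matrix genes in every library of the 4 groups (x axis). Points are libraries and black bars are means ± SD (n = 5). Cold DPP4+ libraries stand alone at 19389.5 to 32524 in Vcan, and Col5a3 and Col6a3 are several-fold lower in DPP4+ than in DPP4- cells.

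The populations were then compared at each temperature. At 6 °C 15 of the 36 had higher and 17 lower levels in DPP4+ cells, and at 22 °C 15 and 18. Among all genes 74.2% were called at 6 °C, 38.5% higher and 35.7% lower, and 74.9% at 22 °C, 38.7% higher and 36.2% lower. The groups were apart for 28 of the 36 at 6 °C (14 higher and 14 lower) and for 31 at 22 °C (15 and 16). Over all genes they were apart for 57.1% at 6 °C (29.8% higher and 27.4% lower) and 64.8% at 22 °C (33.4% and 31.4%). In direction 13 of the 36 were higher at both temperatures and 16 lower at both. The share of all genes with calls in the same direction at both temperatures is not given here. DPP4+ cells had lower levels of the main chains of collagen types I, III, V, VI and XXVII. They had higher levels of the fibril surface collagens XII, XIV and XVI, of fibronectin, and of Fbn1, Mfap5, Fbln2, Efemp1 and Efemp2. Setting totals equal shifted the median over all genes, 0.03 at each temperature, to 0.50 at 6 °C and 0.64 at 22 °C. The counts then were 19 higher and 13 lower at each temperature, and among the genes lower at both Col23a1 and Fbln1 turned to 0.039 and 0.048 at 6 °C.

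Among fibrillar chains, Col5a3 (chr9:20770050-20815117), the least widespread type V chain, differed most downward. Col5a3 had 2928, 3878, 4983, 3932 and 5740.2 normalized counts in DPP4+ cells, against 60259.7, 59950.3, 68984, 65241 and 77469.5 in DPP4- cells, at 6 °C. At 22 °C it had 3832, 6671, 6523, 6456 and 6418 in DPP4+ cells, against 93436, 76448, 77083, 76073 and 76108 in DPP4- cells. The groups lay far apart, 15.5-fold lower in DPP4+ cells at 6 °C (log2 difference -3.98 ± 0.16, adjusted p = 1.3e-15) and 13.3-fold lower at 22 °C (-3.76 ± 0.16, adjusted p = 3.87e-15). Col3a1 was 3.12-fold lower in DPP4+ cells at 6 °C and 3.58-fold lower at 22 °C. Col1a1 was 2.47-fold and 2.82-fold lower, Col1a2 2.06-fold and 2.52-fold, Col5a1 1.89-fold and 2.12-fold and Col5a2 1.54-fold and 1.67-fold. The cartilage collagen Col27a1 was 5.90-fold and 6.80-fold lower, at 308 ± 42.3 against 1816 ± 361 in the cold. All of these passed at both temperatures, with adjusted p from 1.3e-15 for Col5a3 at 6 °C to 1.44e-07 for Col1a2 at 6 °C. With totals set equal Col5a2 kept its direction at 22 °C but not its call (log2 difference -0.13, adjusted p = 0.0743).

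Minor fibrillar chains went the other way. Col24a1 was 24.3-fold higher in DPP4+ cells at 6 °C (log2 difference 4.53 ± 0.48, adjusted p = 4.96e-08) and 118-fold higher at 22 °C (6.93 ± 0.48, adjusted p = 8.02e-11). The ratio at 22 °C rests on 13 reads in the DPP4- libraries and was 190.07 without DPP4- 22 °C library 4. Col11a1, best known from cartilage fibrils, had 90.6, 64.4, 68.9, 56.3 and 49.4 normalized counts in DPP4+ cells, against 12.1, 9.54, 6.75, 9.41 and 0.823 in DPP4- cells, at 6 °C. At 22 °C it had 70.3, 70.1, 63.0, 69.5 and 60.3 in DPP4+ cells, against 4.05, 4.504, 6.30, 9.21 and 15.4 in DPP4- cells. These low levels did not overlap (log2 difference 3.17 ± 0.40 at 6 °C and 3.07 ± 0.40 at 22 °C).

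The type VI chains were all lower in DPP4+ cells, to different degrees. Col6a3 (chr1:90766860-90844001), the largest chain, had 13874, 17408, 19929, 17039 and 20772 normalized counts in DPP4+ cells, against 97052, 110285, 127315, 133113 and 133266 in DPP4- cells, at 6 °C. At 22 °C it had 15286, 25400.4, 23312, 22018 and 21776 in DPP4+ cells, against 147299, 168384, 154101, 168732 and 158307 in DPP4- cells. It was thus 6.75-fold lower at 6 °C and 7.39-fold lower at 22 °C, with no overlap. Col6a1 was 2.995-fold and 3.05-fold lower, Col6a2 4.61-fold and 4.85-fold, Col6a5 3.79-fold and 3.78-fold and Col6a6 1.54-fold and 2.12-fold. For Col6a6 the cold difference lost its call without DPP4+ cold library 1 or DPP4- cold library 4 (adjusted p 0.0569 and 0.0532) and with totals set equal (log2 difference -0.13, adjusted p = 0.540).

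Network and beaded collagens outside type VI differed between the populations in both directions. Col8a1 had a mean of 244 ± 30.6 normalized counts at 6 °C in DPP4+ and 11.1 ± 4.28 in DPP4- cells, and 784 ± 73.2 and 25.2 ± 9.67 at 22 °C. The log2 differences were 4.40 ± 0.23 (adjusted p = 1.19e-13) and 4.98 ± 0.23 (adjusted p = 1.69e-14). Col28a1 averaged 1312 ± 266 in the DPP4+ and 69.6 ± 25.9 in the DPP4- libraries at 6 °C, and 1989 ± 223 and 66.9 ± 24.3 at 22 °C. It was 18.8-fold and 29.7-fold higher in DPP4+ cells. Schwann cell markers, beside it, were lower in DPP4+ cells in 4 of 6 cases and higher in 2 at each temperature. Over all genes 35.7% were lower and 38.5% higher at 6 °C, and 36.2% and 38.7% at 22 °C. Col8a2 was higher in DPP4+ cells at 22 °C (2.09 ± 0.22, adjusted p = 7.25e-09) and did not pass at 6 °C (0.09 ± 0.22, adjusted p = 0.727). Col7a1 was lower in DPP4+ cells at 22 °C (-0.52 ± 0.13, adjusted p = 0.00109), with 0.078 when totals were set equal, and did not pass at 6 °C (0.23 ± 0.13, adjusted p = 0.126). Col23a1 was lower by -0.43 ± 0.13 at 6 °C and -0.70 ± 0.13 at 22 °C, and not called with totals set equal (0.039 and -0.096).

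All 3 fibril surface collagens were higher in DPP4+ cells at both temperatures. Col12a1 (chr9:79598987-79721141) had the values given above in DPP4+ cells and 456, 503, 391, 478 and 434 normalized counts in DPP4- cells at 6 °C and 469.9, 791, 611, 669 and 715 at 22 °C. Every DPP4+ library lay more than 10 times above every DPP4- library. The ratio was 31.0 at 6 °C (log2 difference 4.93 ± 0.13, adjusted p = 5.18e-18) and 31.4 at 22 °C (4.99 ± 0.13, adjusted p = 4.96e-18), and its rank among all genes was 81 and 44 in DPP4+ cells against 4427 and 3430 in DPP4- cells. Col14a1 averaged 15074 ± 3223 in the DPP4+ and 5739 ± 790.1 in the DPP4- libraries at 6 °C, and 13901 ± 2371 and 5765 ± 1179.7 at 22 °C. It was 2.63-fold and 2.41-fold higher. Col16a1 was 1.68-fold and 1.41-fold higher.

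Fibronectin was 6.33-fold higher in DPP4+ cells at 6 °C (log2 difference 2.67 ± 0.10, adjusted p = 1.16e-16) and 4.53-fold higher at 22 °C (2.18 ± 0.10, adjusted p = 5.74e-15), with no overlap at either temperature. Versican was 4.51-fold higher at 6 °C (log2 difference 2.17 ± 0.12, adjusted p = 9.31e-14). At 22 °C it did not pass (-0.14 ± 0.12, adjusted p = 0.291), and with totals set equal it was called higher in DPP4+ cells (0.47).

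The genes of elastic fibres divided. Eln was lower in DPP4+ cells, with means of 4499 ± 576 in the DPP4+ and 9645 ± 1320 in the DPP4- libraries at 6 °C (log2 difference -1.10 ± 0.16, adjusted p = 2.18e-06), and 3357 ± 836 and 11501 ± 2370.3 at 22 °C (-1.79 ± 0.16, adjusted p = 1.6e-09). Fbn1 was higher in DPP4+ cells, with 63472, 75289.6, 72969.5, 63702 and 87159 normalized counts at 6 °C and 68594, 87008, 79925, 77090.1 and 88222 at 22 °C beside the DPP4- values above. No DPP4+ library overlapped with a DPP4- library of its temperature, and the ratios were 2.04 and 1.65 (log2 difference 1.03 ± 0.11 and 0.72 ± 0.11). Mfap5 was 3.03-fold and 2.60-fold higher in DPP4+ cells, while Mfap2, the related small microfibril glycoprotein, was 1.61-fold and 1.71-fold lower, at 22 °C without a call when totals were set equal (adjusted p = 0.0917). Mfap4 was higher at 6 °C (0.93 ± 0.17, adjusted p = 6.89e-05) and did not pass at 22 °C (0.31 ± 0.17). Fbn2 was higher at 22 °C (2.07 ± 0.30, adjusted p = 5.09e-06) and did not pass at 6 °C (0.62 ± 0.30). Emilin1 was lower at 6 °C (-0.58 ± 0.09, adjusted p = 6.6e-06), without a call when totals were set equal (-0.11). At 22 °C it did not pass (-0.10 ± 0.09), and was called higher with totals set equal (0.51).

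Fibulins, which join elastin to microfibrils, also divided. Efemp2 (fibulin-4), which brings lysyl oxidase to elastin, was 2.86-fold higher in DPP4+ cells at 6 °C, at 4917 ± 565 against 1718 ± 119.5, and 2.48-fold higher at 22 °C, at 5082 ± 321 against 2045 ± 135. Fbln2 was 1.91-fold and 1.85-fold higher and Efemp1 (fibulin-3) 1.54-fold and 1.94-fold higher. Fbln1 was lower by -0.42 ± 0.11 at 6 °C (0.048 with totals set equal) and -0.95 ± 0.11 at 22 °C. Fbln5, needed for elastic fibre assembly in mice, differed least, with 0.03 ± 0.07 at 6 °C (adjusted p = 0.715) and -0.18 ± 0.07 at 22 °C (adjusted p = 0.0287), and it was called higher with totals set equal (0.50 and 0.44). Its call at 22 °C was also lost without DPP4+ 22 °C library 1 or 2 or DPP4- 22 °C library 5 (adjusted p 0.0648 to 0.110).

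**Figure D4:**
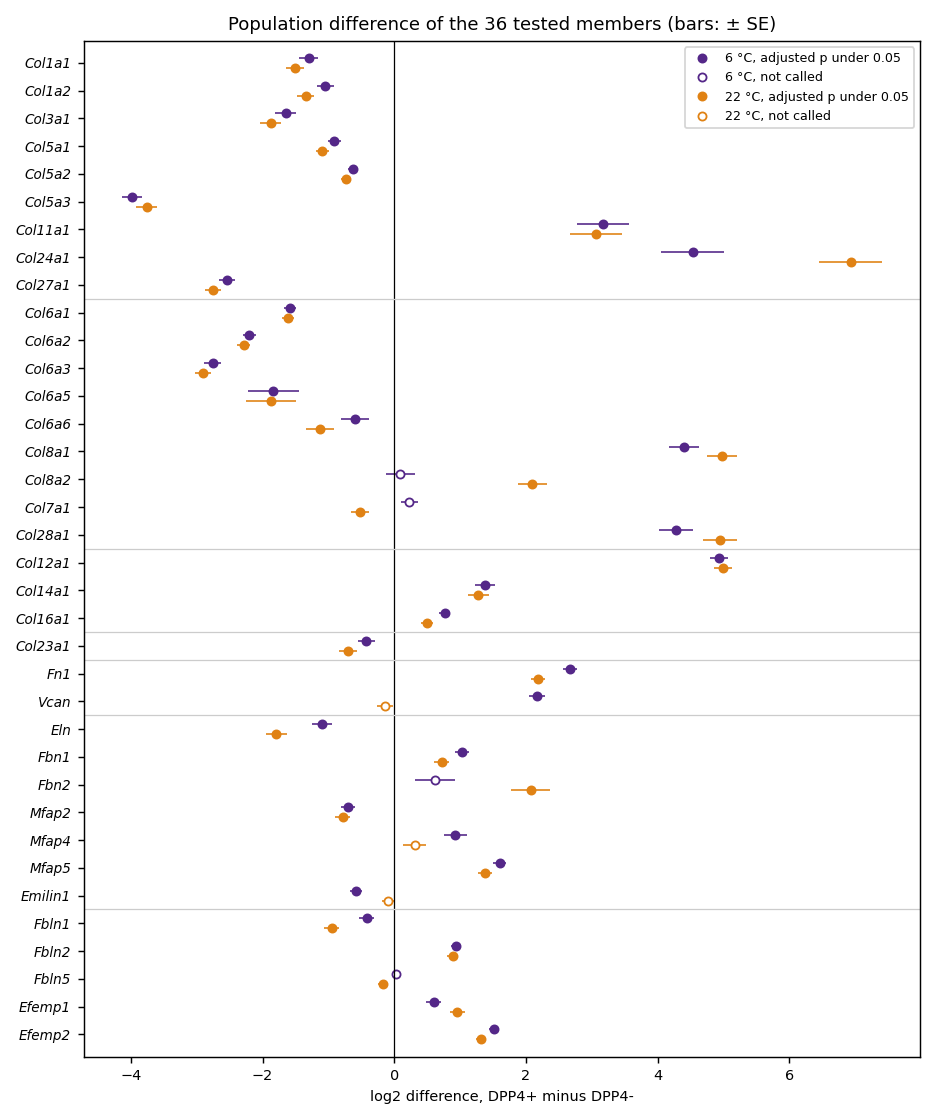
Fitted log2 difference of DPP4+ minus DPP4- cells (x axis) for the 36 tested matrix genes (y axis, grouped by role), at 6 °C (purple) and 22 °C (orange). Filled points have an adjusted p under 0.05 and bars are ± SE. Type I, III, V and VI chains lie below 0 down to -3.98 for Col5a3, while Col12a1 lies at 4.93 and 4.99 and Fn1 at 2.67 and 2.18 at 6 and 22 °C.

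Markers differed between the populations beside these genes. At 6 °C, of 9 endothelial markers 3 were higher and 5 lower in DPP4+ cells, of 11 pericyte and smooth muscle markers 3 and 5, of 7 mature adipocyte markers 2 and 2, of 4 myeloid markers 1 and 2 and of 24 immediate early genes 4 and 20. At 22 °C the counts were 1 and 5, 4 and 6, 6 and 0, 1 and 3, and 3 and 20 (for mature adipocyte markers, 0 were lower at an unadjusted p under 0.05, by edgeR and by DESeq2). Immediate early genes, which respond to taking tissue apart, summed to 73000 to 119302 normalized counts in DPP4+ cells and 281078 to 338657 in DPP4- cells at 6 °C. At 22 °C they summed to 77725 to 99667 in DPP4+ cells and 278929 to 370607 in DPP4- cells. Acta2 averaged 3083 and 6046 in DPP4+ cells at 6 and 22 °C, against 44.5 and 45.6 in DPP4- cells. Of 2 mesothelial markers 1 was higher and 1 lower at each temperature. Their part in the matrix results was not tested.

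Levels of different genes were compared as normalized counts per kb of exonic length, taken as the union of all annotated exons of a gene. In DPP4+ cells the order was Col1a1 (27718 ± 3513 at 6 °C and 30923 ± 5936 at 22 °C), Col3a1 (21173 ± 3545 and 27295 ± 6907), Fn1 (15059.5 ± 1559 and 19013 ± 1978), Col1a2 (12011 ± 1728 and 13382 ± 2273) and Fbn1 (5979 ± 806 and 6610.1 ± 659). In DPP4- cells Col1a1 (68444 ± 10487 and 87059 ± 9886) and Col3a1 (66041 ± 9353 and 97760 ± 7393) came before Col1a2 (24774 ± 3287 and 33743 ± 2858), and then Col6a1 (12782 ± 1297 and 15717 ± 357) and Col6a3 (10048 ± 1336 and 13322 ± 775). Per library the ratio of Col3a1 to Col1a1 was 0.760 ± 0.0359 in DPP4+ cells at 6 °C and 0.874 ± 0.0649 at 22 °C, and 0.967 ± 0.0435 and 1.13 ± 0.0800 in DPP4- cells. Exonic length sets the order of the genes and the scale of each ratio, and cancels only between groups. It was 12426 bases for Col1a2 against 6563 for Col1a1, and 8326 for Col6a2 against 4380 for Col6a1.

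Within collagen types the chains stood in different ratios per kb in the populations. For type I collagen the ratio of Col1a1 to Col1a2 was 2.31 ± 0.0943 in DPP4+ cells at 6 °C, 2.31 ± 0.0829 at 22 °C, and 2.76 ± 0.0617 and 2.58 ± 0.130 in DPP4- cells. Its level depends on the lengths and does not count the chains of a molecule. Before division by length the means in DPP4+ cells at 6 °C were 181915 for Col1a1 and 149254 for Col1a2. The ratio of Col5a3 to Col5a1 was 0.185 ± 0.0300 and 0.226 ± 0.0292 in DPP4+ cells at 6 and 22 °C, against 1.54 ± 0.130 and 1.43 ± 0.0949 in DPP4- cells. The ratio of Col6a3 to Col6a1 was 0.347 ± 0.0215 and 0.348 ± 0.0328 in DPP4+ cells, against 0.785 ± 0.0565 and 0.848 ± 0.0515 in DPP4- cells. That of Col6a1 to Col6a2 was 2.26 ± 0.0223 and 2.15 ± 0.0664, against 1.47 ± 0.0519 and 1.35 ± 0.0289. Before division by length Col6a2 was the higher of the pair in DPP4- cells, with means of 72446 against 55987 at 6 °C. For these type V and VI ratios no DPP4+ library overlapped with a DPP4- library, and scaling of a whole library cancels in them. Fn1 stood at 0.546 ± 0.0437 and 0.627 ± 0.0864 of Col1a1 in DPP4+ cells, against 0.0352 ± 0.00569 and 0.0485 ± 0.00489 in DPP4- cells. Eln stood at 0.0933 ± 0.00938 of Fbn1 at 6 °C and 0.0621 ± 0.0108 at 22 °C in DPP4+ cells, and at 0.407 ± 0.0284 and 0.352 ± 0.0360 in DPP4- cells. The ratio of Vcan to Fn1 was 0.126 ± 0.0333 at 6 °C and 0.0287 ± 0.00166 at 22 °C in DPP4+ cells, and 0.173 ± 0.0205 and 0.143 ± 0.0137 in DPP4- cells.

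**Figure D5:**
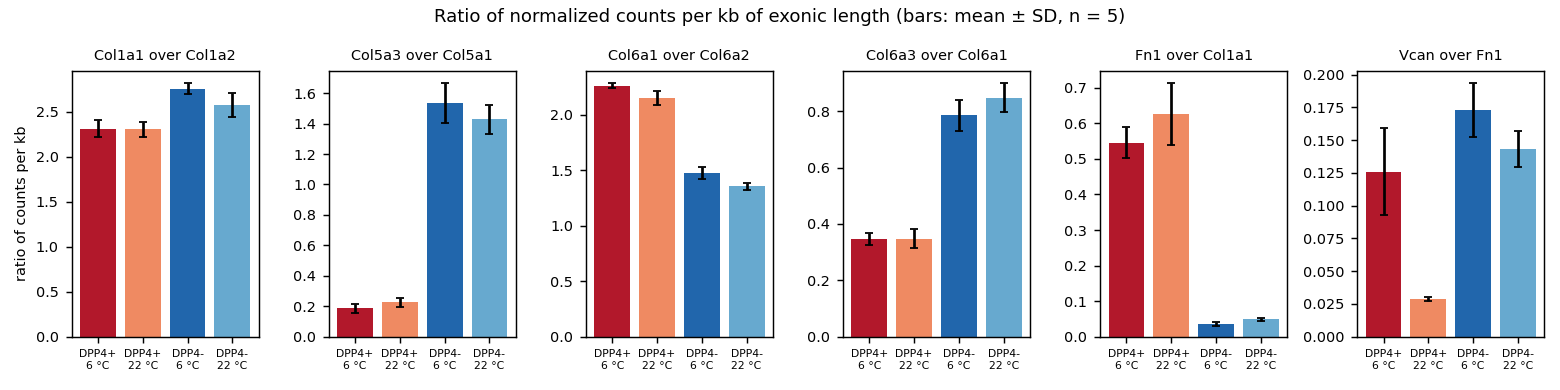
Ratio of normalized counts per kb of exonic length (y axis, starting at 0) for 6 pairs of matrix genes in the 4 groups (x axis). Bars are means ± SD of the libraries (n = 5). Col5a3 over Col5a1 stands at 0.185 and 0.226 in DPP4+ cells at 6 and 22 °C, against 1.54 and 1.43 in DPP4- cells, and Vcan over Fn1 at 0.126 in DPP4+ cells at 6 °C against 0.0287 at 22 °C.

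Genes that make, fold, bind and break down this matrix were counted in 5 further lists. In the cold in DPP4+ cells 6 of 30 collagen maturation genes rose and 8 fell, where 23.5% of all genes were called higher and 22.6% lower. Tll1, a protease that trims procollagens, had 1249 ± 183 normalized counts at 6 °C and 95.9 ± 23.1 at 22 °C, and lysyl oxidase (Lox), which cross-links collagen and elastin, 17673 ± 2661 and 33316 ± 2109. Of 22 elastic fibre partners 5 rose and 4 fell. Adamtsl2, which binds fibrillin, rose, with 119 ± 28.2 at 6 °C and 20.6 ± 6.47 at 22 °C. Svep1 fell, with 10568 ± 446 at 6 °C and 19347 ± 1054 at 22 °C. Of 24 matrix receptors 6 rose and 6 fell, with the integrin Itga2, which binds collagen, at 572 ± 67.2 and 267 ± 22.7, and Itga8, which binds fibronectin, at 48.9 ± 12.6 and 126 ± 13.2. Of 22 matrix breakdown genes 6 rose and 3 fell. Adamts9, which cleaves versican, stood at 1127 ± 259.8 at 6 °C and 204 ± 17.8 at 22 °C. Adamts15, which also cleaves it, stood at 176 ± 34.3 and 956 ± 88.1, and Mmp11 at 103 ± 8.72 and 406 ± 43.0. Of 33 regulators of matrix genes 10 rose and 8 fell, with Twist2 at 832 ± 112 and 315 ± 19.2. The receptor Tgfbr1 stood at 3255 ± 329.5 and 1567 ± 82.6 and the ligand Tgfb3 at 275 ± 37.4 and 553 ± 28.6. The list medians were -0.01, -0.13, -0.08, 0.06 and -0.00 in this order, against 0.01 for all genes.

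In DPP4- cells, where 3.23% of all genes were called lower and 1.98% higher, 8 of 30 collagen maturation genes fell in the cold, among them the prolyl hydroxylase subunit P4ha2 (1526 ± 149 at 6 °C and 2018 ± 140.2 at 22 °C) and the collagen chaperones Crtap (1857 ± 165 and 2319 ± 104) and Fkbp10 (2132 ± 198 and 2638 ± 158). Of the elastic fibre partners 4 fell (2 by edgeR), of the receptors 5 and of the breakdown genes 1. None of the 33 regulators was called (3 at an unadjusted p under 0.05, 0 by edgeR and 0 by DESeq2). The medians were -0.16, -0.13, -0.15, -0.05 and -0.02, against 0.00. The cold effects of the populations differed upward and downward for 9 and 2 maturation genes, 4 and 1 elastic fibre partners, 5 and 3 receptors, 5 and 3 breakdown genes and 8 and 5 regulators, against 16.8% and 16.4% of all genes.

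Between the populations 12 of the 30 maturation genes had higher and 14 lower levels in DPP4+ cells at 6 °C, and 7 and 18 at 22 °C. Of all genes 38.5% were higher and 35.7% lower at 6 °C, and 38.7% and 36.2% at 22 °C. At 22 °C P4ha3, another prolyl hydroxylase subunit, had 804 ± 103 normalized counts in DPP4+ cells, against 24.5 ± 10.6 in DPP4- cells, and the lysyl hydroxylase Plod1 1291 ± 51.3, against 4239.9 ± 520. Elastic fibre partners were higher and lower in 8 and 9 cases at 6 °C and 8 and 11 at 22 °C, receptors in 16 and 8 and 13 and 7, breakdown genes in 5 and 13 and 4 and 12, and regulators in 15 and 16 and 12 and 15. Of the receptors at 22 °C, Ddr1 was higher, with 885 ± 54.4 in DPP4+ cells, against 274 ± 17.1 in DPP4- cells. The fibronectin receptor chain Itga5 was lower, with 4474 ± 505 in DPP4+ cells, against 15403 ± 550.4 in DPP4- cells. The hyaluronan receptor Cd44 was lower too, with 3436 ± 445, against 13145 ± 829.8. The matrix metalloproteinase Mmp3 had 2219 ± 307 in DPP4+ cells, against 22323 ± 1659 in DPP4- cells, and the collagen-cleaving cathepsin Ctsk 2690.1 ± 298, against 12121 ± 704, also at 22 °C. Medians were -0.10 and -0.30 for maturation genes, -0.01 and -0.27 for partners, 0.55 and 0.26 for receptors, -0.57 and -0.49 for breakdown genes and -0.03 and -0.04 for regulators at 6 and 22 °C, against 0.03 for all genes at each.

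The 3 members below the level for testing were Col26a1, Col13a1 and Col25a1. Col26a1, a collagen of testis and ovary, was at 0 in 4 of 5 DPP4+ libraries at 6 °C and in 5 of 5 at 22 °C, and reached 4.61 normalized counts in DPP4- cells. The membrane-spanning Col13a1, known from the neuromuscular junction, ranged from 0 to 6.43, and Col25a1, a membrane-spanning collagen of neurons, from 0 to 2.73. The strand used in counting is not given in the sources used here, and 20.1% of the exonic bases of Fbn1 are shared with Gm9913 on the other strand, so reads of both genes cannot be told apart there. The share was 4.63% for Mfap4, 4.57% for Efemp2, 3.30% for Eln, 2.50% for Fn1 and 2.50% for Col5a1, and at most 1.44% for the other tested members.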

How the data were processed

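RNA-seq of 20 libraries, 4 groups of 5, was used. The labels' protocols name an RNAqueous micro kit for RNA and NEBNext Ultra II for library construction. The submitters' processing notes name Trim Galore 0.4.1, HISAT2 2.0.1, featureCounts 1.4.6, DESeq2 1.6.3 and the builds GRCm38 and mm10. The annotation and the strand are not given in the sources used here. The deposited signal is normalized counts, made by the authors by dividing each library's gene counts by 1 factor. Dividing by the value of 1 read in each library returned whole reads for 100% of the values, none farther than 0.00054 read from a whole number (0.1 was allowed). Reads per library were 8.49 to 18.8 M, and genes without a symbol (958) took 0.0610 to 0.0824% of them.

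For the 13057 genes with a mean of at least 10, limma 3.58.1 in R 4.3.3 was fitted to log2(value + 1) (4 group means, all 20 libraries, 16 residual degrees of freedom, variances moderated with a trend and robustly). Each contrast had its two-sided p-values adjusted by Benjamini-Hochberg (threshold 0.05). Folds are ratios of group means. Log2 differences are fitted on the log2(value + 1) scale, which understates the change of low genes. In simulated data the test recovered most of the 4-fold changes put in, and the recovery of smaller changes is not given here. The simulation had no difference in totals between the populations. The 39 members, the lists and the tests were chosen with earlier results of these data known. The naming rule was to name all members, and from each further list genes among the 3 smallest adjusted p-values in a contrast whose groups did not overlap (no such condition for the difference of cold effects). Alternatives were edgeR 4.0.16 and DESeq2 1.42.0 on the whole reads, other scalings, pseudocounts and filters, a replicate block and leaving out each library. With edgeR, 3290 genes rose and 3223 fell in the cold in DPP4+ cells, 225 rose and 390 fell in DPP4- cells, 2197 and 2150 differed in these effects upward and downward, and DPP4+ against DPP4- cells gave 5013 higher with 4718 lower genes at 6 °C and 5041 with 4778 at 22 °C. Exonic lengths are unions of all exons of a gene in GENCODE vM21 (25455 genes), and gene positions and promoters those of RefSeq on GRCm38. The labels do not say whether same-numbered libraries are paired, and the main fit did not pair them.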

Additional observations from a re-analysis of the deposited data

Results flagged for a closer look

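In 10 of the 144 groups checked (36 genes in 4 groups) 1 library stood far from the other 4, where chance gives about 1 in 20, or 7.2. DPP4+ 22 °C library 1 was low in Col5a3 (3832 normalized counts), Col6a1 (18439.5) and Col6a2 (15883). DPP4- 22 °C library 1 was high in Col5a3 (93436) and Eln (15676). DPP4- 22 °C library 3 was low in Col1a2 (356408) and library 5 high in Fbln5 (2632). Among cold libraries, DPP4+ library 5 was low in Col8a1 (191), DPP4- library 5 low in Fbn2 (47.7) and DPP4- library 3 high in Mfap2 (1413).

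The cold effects of the populations differed, by the test of the difference itself, for 9 members. That is 25% of the 36 tested, below the 33.2% of all genes called in this contrast. The log2 differences, DPP4+ minus DPP4-, were 2.31 for Vcan, 0.75 for Col7a1, 0.69 for Eln, 0.53 for Fbln1 and 0.49 for Fn1, and -2.40 for Col24a1, -2.01 for Col8a2, -1.45 for Fbn2 and -0.48 for Emilin1.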

How the results depend on the processing

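The number of members that fell in DPP4- cells, 17, ranged from 11 to 16 when single libraries were left out, with 11 without DPP4- cold library 3 or DPP4- 22 °C library 4. Without single libraries, 2 to 3 rose and 11 to 16 fell in DPP4+ cells, 5 to 7 and 4 to 5 differed upward and downward in their cold effects, 15 to 16 were higher and 17 to 18 lower at 22 °C, and 15 to 17 and 16 to 17 at 6 °C. Shares held by the 39 genes then ranged from 8.76 to 9.17% and 10.2 to 11.1% in DPP4+ cells at 6 and 22 °C, and from 11.98 to 12.8% and 15.4 to 16.02% in DPP4- cells. Per kb of exonic length the shares were 4.32 and 5.27% in DPP4+ cells and 6.11 and 7.90% in DPP4- cells, and without Col1a1, Col1a2, Col3a1 and Fn1 2.64 and 2.94%, and 3.20 and 3.84%.

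With totals set equal, directions between the populations turned at 22 °C for Fbln5 (0.44), Vcan (0.47), Emilin1 (0.51) and Col7a1 (0.078), and at 6 °C for Col23a1 (0.039) and Fbln1 (0.048). With the totals of all genes but the members set equal, an alternative chosen after seeing the data, they turned at 22 °C for Fbln5 (0.35), Vcan (0.39) and Emilin1 (0.43). Over all genes, totals set equal gave 9107 higher and 2039 lower at 22 °C and 8240 and 2461 at 6 °C, against 5052 and 4730, and 5031 and 4662. The second alternative gave 8700 and 2271, and 7933 and 2646. In DPP4- cells 259 genes rose and 422 fell in the cold, but 915 and 227 with totals set equal, 102 rose with those 10 libraries fitted alone and 163 without DPP4- cold library 3. Upward differences of cold effects numbered 2192, against 1128 and 1279 with either scaling, and the median moved from 0.01 to -0.13 and -0.10. The causes were not tested, and the difference of cold effects was not fitted on fewer groups.

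The labels number the libraries alike in each group. In deviations from group means, same-numbered libraries correlated above 0.1 in 2 of 5 pairs in each of the 4 pairings of groups. The highest r was 0.267, for number 1 in DPP4+ cells, and the lowest -0.228, for number 5 in DPP4- cells. Between the populations 4 of 5 at 6 °C and 2 of 5 at 22 °C correlated best with their own number. Between the temperatures 2 of 5 did in DPP4+ and 3 of 5 in DPP4- cells. Whether the numbers mark shared mice or batches is not known, and the main fit did not use them. With the number as a block the members called higher and lower were 3 and 16 in DPP4+ cells in the cold, 0 and 18 in DPP4- cells, 5 and 4 for the difference (Eln lost its call, adjusted p = 0.0630, and Mfap4 gained one), 16 and 18 at 22 °C and 16 and 17 at 6 °C.

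TMM factors changed no call of a member and a pseudocount of 0.5 changed none. Depth limits Col11a1, Col24a1, Col8a1 and Col8a2 in DPP4- cells, where libraries held few reads of each.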
